A study of Mus musculus with 2 samples.

Results

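Ccl5-high endothelial cells (ECs) are ECs of a cGAMP-injected tumour whose deposited Ccl5 value was at least 1.0, on a scale of the natural log of 1 plus UMIs (unique molecular identifiers, 1 per captured transcript) per 10000 UMIs of the cell. They were 276 of the 1340 cGAMP-treated ECs and of the 3857 ECs of both libraries. They are described against the 605 cGAMP-treated ECs in which Ccl5 was at 0, called Ccl5-zero, and 459 Ccl5-low cells lay between. The study compared, by droplet scRNA-seq, ECs sorted as live CD45- CD31+ cells from Lewis lung carcinoma (LLC) tumours implanted under the skin of C57BL/6 mice, which the labels call adult and the methods 8 to 9 weeks old and male. cGAMP, the cyclic dinucleotide that binds STING, was injected into the tumour at 14 µg in 70 µl of PBS, and the control tumour received PBS. The methods place the sampling 24 h after the injection, and the legend of a supplementary plot gives 6 h for the same data. Each library came from 1 mouse, so cells are not replicates, no test was made, and every interval given is a 95% interval for counting error only.

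Ccl5, also called RANTES, is a secreted chemokine that draws T cells, NK cells and monocytes. Its transcription is known to be turned on by interferon regulatory factors and NF-kB, both of which act downstream of STING. In blood vessels, chemokines bound to the surface of ECs help to arrest leucocytes, and Cxcl9 and Cxcl10 do so for T cells that carry Cxcr3.

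The members were chosen by Ccl5, so their Ccl5 values only describe the choice. They held 28107 of the 29213 Ccl5 UMIs of the cGAMP library, or 96.2%, at a level of 2016 CPM (UMIs per 1000000 UMIs of the group, 1992 to 2040). A member held a median of 39 Ccl5 UMIs, with a middle range of 17 to 118 and a highest count of 1012. The Ccl5-low cells held a median of 1 UMI and a level of 43.0 CPM, and 75.8% of them had 1 or 2 UMIs. Members are thus a class cut from a continuous range. The 3 cells just inside the limit had values of 1.005, 1.02 and 1.03, the 3 just outside 0.996, 0.981 and 0.978, and 17 cells lay from 1.0 to 1.1 against 16 from 0.9 to 1.0. The 10 cells with the most Ccl5 held 25.2% of all Ccl5 UMIs. When the groups were set from a random part of the UMIs of each cell, drawn at even odds, 262 of 274 cells called high were also members on all UMIs. Another 10 members were called low and 4 zero. The UMIs drawn are part of those that set the members, so this overlap was largely fixed in advance. In the UMIs not used for that call, the Ccl5 level was 1994 CPM (1961 to 2028) in cells called high. It was 12.1 CPM (10.5 to 14) in cells called zero. In the PBS library 9 of 2517 ECs, or 0.358% (0.164 to 0.678), reached the same limit.

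Depth differed between the groups. Members had a median of 44370.5 UMIs and 6128.5 genes per cell, Ccl5-zero cells 35642 UMIs and 5633 genes, and Ccl5-low cells 50167 UMIs and 6484 genes. The share of Ccl5-zero cells was 60.1% (53.9 to 66.0) among the ECs with the fewest genes and 21.3% (16.5 to 26.7) among those with the most, when the library was divided into 5 equal ranges. The share of members ranged from 17.5% to 26.5% over these 5 ranges, with the highest in the range with the most genes. Levels in members and Ccl5-zero cells were therefore compared over 10 bins of genes detected and weighted to the members, and each log2 ratio below is that of these weighted CPM. The 2 libraries shared 1 cell barcode, and mitochondrial transcripts were a median of 2.68% of UMIs in members and 2.95% in Ccl5-zero cells.

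**Figure D1:**
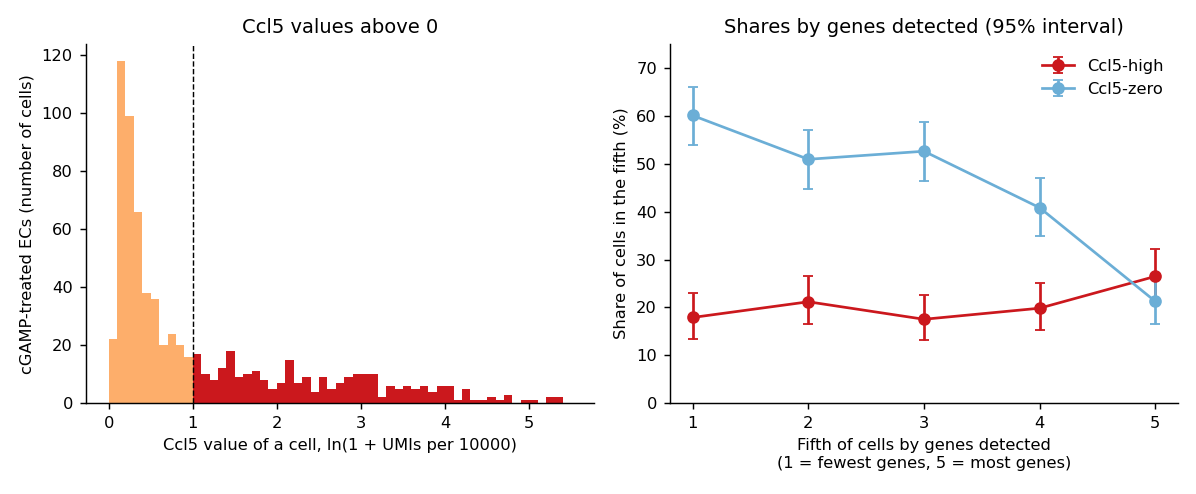
Left, number of cGAMP-treated ECs by Ccl5 value above 0, on the natural log scale, with the limit of 1.0 as a dashed line and members in red. Right, share of Ccl5-high and Ccl5-zero cells in 5 equal ranges of genes detected, with exact 95% intervals. Values run on without a gap at the limit, and the Ccl5-zero share is 60.1% in the lowest and 21.3% in the highest range whereas the member share stays between 17.5% and 26.5%.

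The members carried endothelial markers at levels close to those of Ccl5-zero cells. Pecam1, the adhesion molecule CD31 on which the sort rests, was at 751 CPM (733 to 769) in members and 828 CPM (815 to 840) in Ccl5-zero cells. Cdh5, the cadherin of endothelial junctions, was at 965 CPM (945 to 985) and 1033 CPM (1019 to 1047). A Pecam1 UMI was found in 274 of the 276 members and a Cdh5 UMI in all 276. None of 15 endothelial identity genes differed by 1.5-fold, and their median log2 ratio was 0.02, beside -0.02 over the 9412 genes that reached 5 CPM in members or Ccl5-zero cells. Ptprc, the leucocyte antigen CD45, was at 0.63 CPM (0.26 to 2.0) in members and 0.54 CPM (0.29 to 1.15) in Ccl5-zero cells, with a UMI in 9 cells of each group.

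Ccl5 is also a transcript of T and NK cells. The 8 T or NK cell markers that could be measured summed to 15.2 CPM (13.2 to 17.4) in members and 10.8 CPM (9.55 to 12.2) in Ccl5-zero cells, and 1 of them passed 5 CPM. The 14 macrophage or monocyte markers summed to 136 CPM (130 to 143) and 112 CPM (108 to 117). Of the 4 that reached 5 CPM, Cd14 alone was at least 1.5-fold higher in members, with a log2 ratio of 0.66, and the median was 0.43. Cd14 gave 1063 of the 1902 member UMIs of this sum, and it is also a leading gene of the stalk-like cluster described below. Lyz2, abundant in myeloid cells and a guide to free RNA, was at 12.9 CPM (10.8 to 15.7) and 12.2 CPM (10.6 to 14), with 25.6% of the member UMIs in 1 cell. With each cell thinned to 5000 UMIs, a Lyz2 UMI was found in 4.40% of members (2.29 to 7.55) and 6.22% of Ccl5-zero cells (4.42 to 8.47). The 5 neutrophil markers summed to 54.4 CPM and 5.99 CPM, but a single member with 45065 UMIs held 681 of the 758 UMIs, and the sum in the other members was 5.54 CPM (4.37 to 6.92). That cell held 431 UMIs of S100a9, 245 of S100a8, 166 of Il1b and 8 of Ccl5, beside 8 of Pecam1 and 18 of Cdh5. The 4 erythroid markers, 33.4 CPM against 3.25 CPM, were likewise concentrated, with 349 of 465 UMIs in 1 member and 8.33 CPM (6.88 to 9.99) in the others. The part of these transcripts in the other results was not tested.

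Of the 9412 genes, 289 were at least 1.5-fold higher in members, which is 3.07%, and 310 were at least 1.5-fold lower, which is 3.29%. When the groups were compared within clusters, 208 were higher and 103 lower. A log2 ratio above 0 was found for 45.6%. With the limit set at 2-fold the shares were 1.23% and 1.04%, and with the limit at 25% above the other group they were 8.92% and 9.67%. Counts for gene lists below use 1.5-fold and are to be read beside these shares. The groups were chosen by Ccl5 in the same cells, so the lists describe 1 tumour.

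Several other chemokine ligands were at higher levels in members, and for some of them the difference rested on 1 cell or was smaller within clusters. Of 12 ligands with at least 5 CPM, 10 were at least 1.5-fold higher, none was 1.5-fold lower and the median log2 ratio was 1.01. Of the 10, Ccl3, Ccl4 and Cxcl16 reached 5 CPM only in the members, so they had to be higher, and 3 had over 25% of their member UMIs in 1 cell. The median was 0.71 with a minimum of 1 CPM. When the groups were compared within clusters, 6 of the 12 were at least 1.5-fold higher, and without the cell with the most UMIs of each gene in each group 9 were, of which 5 were also higher within clusters. Cxcl9, which attracts T cells through Cxcr3, was the most abundant, at 1735 CPM (1708 to 1762) in members and 818 CPM (805 to 830) in Ccl5-zero cells, a log2 ratio of 1.09. Ccl5-low cells had 1174 CPM and the PBS library 130 CPM, so that Ccl5-zero cells lay far above the PBS library and below the members. At 5000 UMIs per cell, a Cxcl9 UMI was found in 77.3% of members (71.9 to 82.1), 67.1% of Ccl5-low cells (62.6 to 71.4), 51.3% of Ccl5-zero cells (47.2 to 55.3) and 9.73% of PBS-treated ECs. Most members thus held Cxcl9 transcripts, and so did a majority of the cells without Ccl5.

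Cxcl10, the other interferon-induced Cxcr3 ligand on the same stretch of chromosome 5, was at 324 CPM (312 to 337) in members and 170 CPM (165 to 176) in Ccl5-zero cells. Its log2 ratio of 0.93 rested in part on 1 member with 711 UMIs, which was 18.3% of the member UMIs, and was 0.77 without the cell with the most Cxcl10 in each group. Thinned cells with a Cxcl10 UMI were 31.9% of members (26.4 to 37.8) and 20.3% of Ccl5-zero cells (17.2 to 23.8). Cxcl16, a membrane-bound ligand of Cxcr6 on T and NKT cells, was at 15.4 CPM (13 to 18.5) and 4.06 CPM (3.13 to 5.29), a log2 ratio of 1.92. It was higher in members within each of the 8 clusters described below, although by only 0.05 on the log2 scale in the stalk-like cluster. Over all clusters Cxcl16 had only 195 UMIs in members and 88 in Ccl5-zero cells. Having reached 5 CPM only in the members, it had to be higher in them as a whole. A Cxcl16 UMI was found in 6.96% of thinned members (4.24 to 10.7) and 2.52% of thinned Ccl5-zero cells (1.42 to 4.12).

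Ccl2, the main attractant of monocytes, was at 557 CPM (539 to 575) in members and 192 CPM (187 to 198) in Ccl5-zero cells, a log2 ratio of 1.53. Its log2 ratio was 0.57 when members and Ccl5-zero cells were compared within clusters. Cxcl12, the homeostatic ligand of Cxcr4, was at 242 CPM and 134 CPM, a log2 ratio of 0.86 that was 0.46 within clusters. Ccl2 is itself a leading gene of the tip-like cluster led by Gal and Chga, and Cxcl12 of that led by Pgf and Ankrd1. A comparison within clusters that these genes mark tends to lower their ratios. Cx3cl1, or fractalkine, was at 21.2 CPM and 12 CPM, a log2 ratio of 0.83. The neutrophil attractants Cxcl1 and Cxcl2 had log2 ratios of 0.59 and 1.09, which were 0.25 and 0.48 within clusters. That of Cxcl2 was 0.72 without the cell with the most UMIs in each group. Ccl3 and Ccl4, which attract monocytes and T cells, had log2 ratios of 1.76 and 2.74, but 1 member held 82.9% of the Ccl3 UMIs and 79.4% of the Ccl4 UMIs. Without the top cell of each group these ratios were -0.11 for Ccl3 and 1.252 for Ccl4, at 4.13 CPM of Ccl4 in members and 1.73 CPM in Ccl5-zero cells. The same cell held 129 Ccl5 UMIs, 43 of Pecam1 and 1 of Ptprc. The 2 ligands that did not reach 1.5-fold were Ccl25, with a log2 ratio of 0.41, and Pf4, with -0.13.

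Among the receptors of Ccl5, only the decoy receptor Ackr1 of venous ECs reached 5 CPM. It was at 170 CPM (161 to 180) in members and 181 CPM (175 to 187) in Ccl5-zero cells, so the intervals overlapped. Csf3, the granulocyte growth factor, was at 72.1 CPM (65.9 to 78.9) in members and 89.1 CPM (85.3 to 93.2) in Ccl5-zero cells, a log2 ratio of -0.31 that fell short of 1.5-fold and ran from -0.90 to -0.03 over the alternatives. It was higher in members in 4 of the 7 clusters with enough UMIs for a ratio. Pooled with no account of genes detected or clusters, its level was 94.2 CPM (90.3 to 98.1) in Ccl5-zero cells and 72.4 CPM in Ccl5-low cells. In members with a Ccl5 value below 2 it was 87.4 CPM (79.8 to 95.5). It was 50.9 CPM (44.3 to 58.2) at values from 2 to below 3 and 17.5 CPM (13.7 to 22) at values of 3 or more. The thinned shares of cells with a Csf3 UMI overlapped, with 12.5% of members (8.78 to 17.0) and 13.9% of Ccl5-zero cells (11.3 to 17.0). Il6 was at 87.1 CPM (81.4 to 93.5) in members and 99.1 CPM (94.8 to 104) in Ccl5-zero cells.

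The upstream sequences below show where letters of known response elements lie before the start of 3 ligands that were higher in members, of which Cxcl9 and Cxcl10 are interferon-induced and Cxcl1 is a target of NF-kB. They are RefSeq sequences of build GRCm38.p6, 250 bases before the annotated start, written 5′ to 3′ on the strand of the gene. Capitals mark matches to the interferon-stimulated response element (GAAA, any 2 bases, GAAA), the gamma-activated site (TTC, any 3 bases, GAA) or the NF-kB site (GGG, any 2 bases, TTTCC), searched on both strands.
Cxcl10, chr5:92348890-92349139, minus strand: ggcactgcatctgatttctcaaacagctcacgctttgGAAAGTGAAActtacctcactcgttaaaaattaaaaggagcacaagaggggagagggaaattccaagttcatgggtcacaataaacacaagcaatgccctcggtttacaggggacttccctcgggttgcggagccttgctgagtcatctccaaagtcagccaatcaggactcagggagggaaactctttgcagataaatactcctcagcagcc
Cxcl9, chr5:92328080-92328329, minus strand: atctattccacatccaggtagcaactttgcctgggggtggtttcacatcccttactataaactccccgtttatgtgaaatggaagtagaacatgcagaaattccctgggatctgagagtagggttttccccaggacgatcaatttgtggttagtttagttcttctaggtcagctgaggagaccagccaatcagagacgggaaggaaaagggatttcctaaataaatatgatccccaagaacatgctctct
Cxcl1, chr5:90890995-90891244, plus strand: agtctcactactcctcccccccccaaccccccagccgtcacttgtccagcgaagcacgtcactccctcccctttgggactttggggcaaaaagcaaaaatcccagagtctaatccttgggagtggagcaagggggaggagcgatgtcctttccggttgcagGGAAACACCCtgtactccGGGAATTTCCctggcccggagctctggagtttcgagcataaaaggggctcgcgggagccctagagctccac

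The Cxcl10 sequence holds 1 match, GAAAGTGAAA, whose first base lies 213 bases before the start. The Cxcl1 sequence holds 2 NF-kB matches, GGAAACACCC and GGGAATTTCC, from 89 and 71 bases before the start. The Cxcl9 sequence holds none of the 3 patterns in this window. Of the 10 chemokine ligands that were at least 1.5-fold higher, 7 had a window of 300 bases, from 250 before to 50 after the start, namely Ccl3, Cxcl1, Cxcl2, Cxcl9, Cxcl10, Cxcl12 and Cx3cl1. The interferon pattern was found in 1 of them, the NF-kB pattern in 2, Cxcl1 and Cxcl2, and the gamma-activated pattern in none. Other forms of these elements were not searched, so a window without a match may still hold them. Over all 32851 windows the shares were 3.44%, 1.63% and 8.3%. Cxcl16, Ccl2, Ccl4 and Ccl5 have no window here.

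Antiviral interferon-stimulated genes were higher in members throughout the list. All 37 that were measured had a log2 ratio above 0, 20 were at least 1.5-fold higher, 17 of 37 within clusters, and the median log2 ratio was 0.61. Of the 37, 2 reached 5 CPM only in the members, so they had to be higher. Among the other 35, 18 were at least 1.5-fold higher. Rsad2, or viperin, which blocks viral replication, had the largest log2 ratio of the list. It was at 360 CPM (348 to 374) in members, 98.3 CPM (93.9 to 103) in Ccl5-zero cells and 105 CPM in the PBS library, a log2 ratio of 1.87. Ccl5-zero cells thus had no more Rsad2 than PBS-treated ECs, and members had more than both. The PBS level is pooled, and the cluster make-up of the groups was not taken into account. The tip-like cluster led by Gal and Chga, of which Rsad2 is a leading gene, is described below. It held 54 of the 605 Ccl5-zero cells and 392 of the 2517 PBS-treated ECs. Ifit2, which binds viral RNA, was at 55.4 CPM and 19.9 CPM, a log2 ratio of 1.48. Isg20, an exonuclease, had a log2 ratio of 1.20, Cmpk2 of 1.28 and Ifit1 of 1.09. The abundant members of the list differed less, with Isg15, a ubiquitin-like modifier, at 1116 CPM (1095 to 1138) and 667 CPM (655 to 678), a log2 ratio of 0.74. Bst2, or tetherin, had a log2 ratio of 0.57 and Ifitm3, which blocks viral entry, of 0.43 at 7590 CPM in members and 5632 CPM in Ccl5-zero cells.

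Most genes of the list, 34 of 37, were also higher in Ccl5-zero cells than in PBS-treated ECs, the exceptions being Rsad2, Ifit2 and Cmpk2, with a median log2 ratio of pooled CPM over the PBS library of 1.03, and of 1.88 in members. Irf7, the interferon-induced factor that drives further interferon transcription, was at 82.7 CPM in the PBS library, 548 CPM (538 to 559) in Ccl5-zero cells and 860 CPM (841 to 879) in members. Both cGAMP groups stood above the PBS library for Irf7, and the step between them was the smaller.

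For several genes the level was higher in each higher range of the Ccl5 value among the members themselves. Rsad2 was at 198 CPM (186 to 210) in the 108 members with values below 2, 353 CPM (335 to 371) in the 82 with values from 2 to below 3 and 550 CPM (527 to 573) in the 86 with values of 3 or more. Over the same ranges Irf7 was at 751, 888 and 1015 CPM, and Cxcl9 at 1174, 1670 and 2175 CPM. Nupr1, a stress-induced transcriptional regulator, was at 90.9, 127 and 269 CPM. Cxcl10 did not follow the order, at 188, 404 and 274 CPM, and Tmem173, which encodes STING, was at 110, 114 and 102 CPM with overlapping intervals. Median genes detected in the 3 ranges were 6140, 6231.5 and 5856, so the range with the highest Ccl5 value was not the one with the most genes. These levels are pooled over the clusters described below. Tip-like ECs made up 23.9% of the members and held 35.7% of the Ccl5 UMIs, and proliferative ECs 13.4% and 10.3%. Rsad2 is a leading gene of the tip-like cluster led by Gal and Chga. The part of cluster make-up in the differences between the 3 ranges was not tested.

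**Figure D2:**
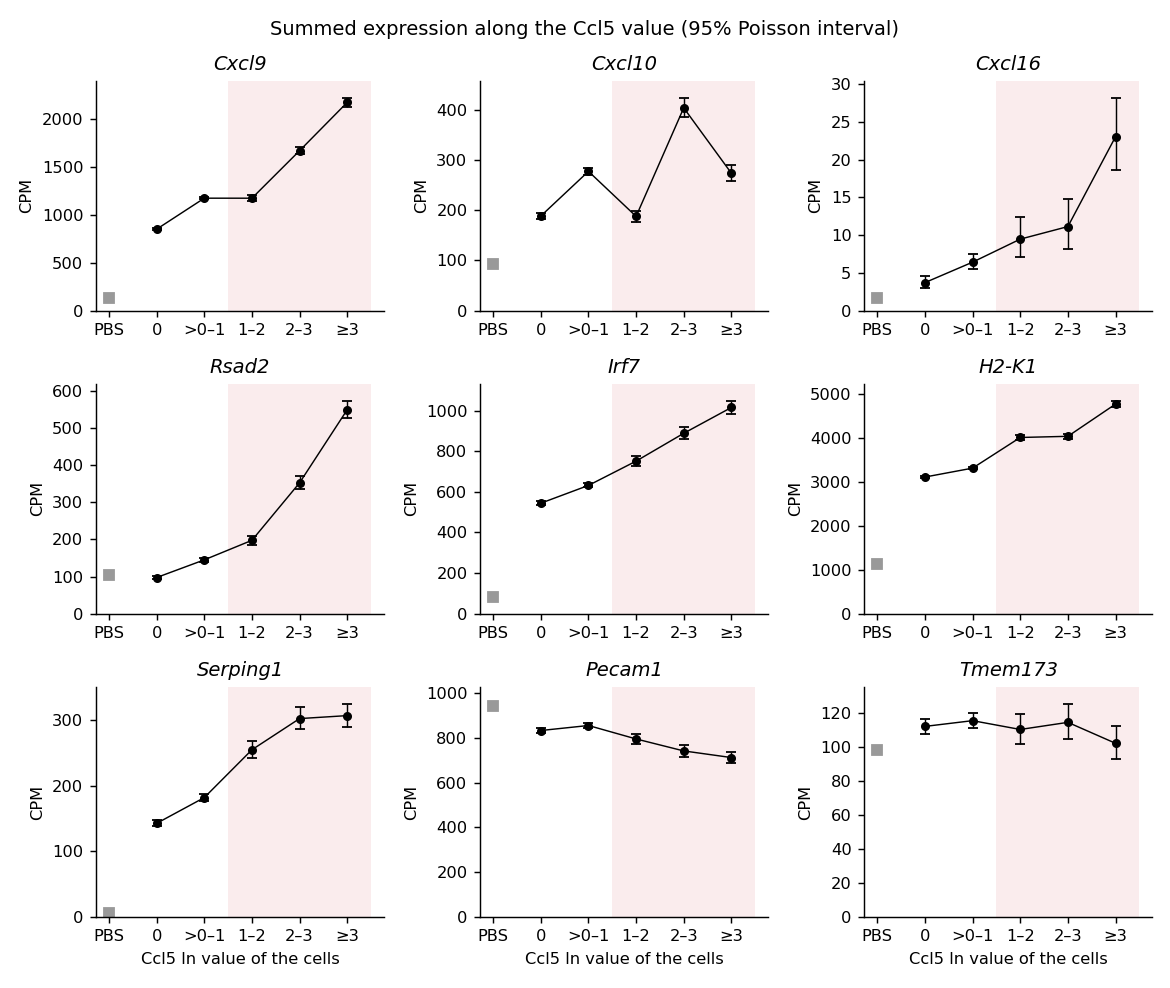
Summed level (CPM) of 9 genes in PBS-treated ECs (grey square) and in cGAMP-treated ECs by range of the Ccl5 value (black points), with exact Poisson 95% intervals. The shaded ranges are the members, and levels are pooled over clusters. Rsad2, Irf7 and Cxcl9 are higher at each step among members, Cxcl10 goes from 188 to 404 and back to 274 CPM, and Tmem173 is at 110, 114 and 102 CPM.

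Genes typical of the interferon-gamma response gave a like picture. Of 23 measured, 11 were at least 1.5-fold higher and 8 within clusters, none was 1.5-fold lower and the median log2 ratio was 0.58. Of the 23, 1 reached 5 CPM only in the members, and 10 of the other 22 were at least 1.5-fold higher. Gbp2, a GTPase that attacks the vacuoles of pathogens, was at 299 CPM (287 to 312) in members and 135 CPM (130 to 141) in Ccl5-zero cells, a log2 ratio of 1.14. Cd274, the checkpoint ligand PD-L1, was at 33 CPM (29.4 to 37.3) and 13.6 CPM (12 to 15.4), a log2 ratio of 1.28. Il18bp, which neutralises interleukin-18, had a log2 ratio of 0.91. Ubd, which tags proteins for degradation, was only moderately higher, at 456 CPM and 331 CPM, a log2 ratio of 0.46, and Ccl5-low cells reached 450 CPM.

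Transcripts for antigen presentation on MHC class I were higher by a small step. Of 21 genes, 18 had a log2 ratio above 0 and 5 were at least 1.5-fold higher, 4 of 21 within clusters, with a median of 0.42. The nonclassical H2-T23, a ligand of NK cell receptors, was at 521 CPM (506 to 537) and 290 CPM (283 to 298), a log2 ratio of 0.84. H2-T22 and H2-Q4 had log2 ratios of 0.72 and 0.66. The classical heavy chains H2-K1 and H2-D1, which carry peptides to CD8+ T cells, had log2 ratios of 0.52 and 0.43, at 4431 and 5236 CPM in members. MHC class II transcripts were few, and Cd74, its invariant chain, was at 33.2 CPM (29.2 to 38.0) in members and 34.8 CPM (32.2 to 37.7) in Ccl5-zero cells.

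Of 7 complement genes, 5 were at least 1.5-fold higher, of which 1 reached 5 CPM only in the members, 4 were higher within clusters and the median log2 ratio was 0.71. Serping1, the inhibitor of C1, was at 306 CPM (294 to 318) in members, 146 CPM (140 to 151) in Ccl5-zero cells and 6.43 CPM in the PBS library, a log2 ratio of 1.07 between the cGAMP groups. C2 and Cfb, parts of the enzymes that cleave C3, had log2 ratios of 1.32 and 0.71.

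The components that sense cGAMP and pass on the signal differed little between members and Ccl5-zero cells. Tmem173 was at 110 CPM (103 to 118) in members and 111 CPM (107 to 116) in Ccl5-zero cells. Irf3, the factor that STING activates, was at 29.1 CPM (25.6 to 33.2) and 29.5 CPM (27.2 to 32.0). Tbk1, the kinase between them, had a log2 ratio of 0.30. Of 14 sensing genes, 2 were 1.5-fold higher, Ifih1, an RNA sensor that interferon induces, with a log2 ratio of 0.74, and Ifi205. Of 12 IRF and STAT factors, 2 were 1.5-fold higher, Stat2 with 0.72 and Irf7 with 0.65, which were 0.62 and 0.55 within clusters. Of 14 interferon and cytokine receptor genes, none was 1.5-fold higher or lower, with a median of 0.02. Ifnar2, a chain of the type I interferon receptor, had a log2 ratio of 0.25, and Tnfrsf1a, the TNF receptor, was at 190.5 CPM (182 to 200) and 189 CPM (183 to 195), a log2 ratio of 0.01. Transcript levels of a sensor or receptor do not measure its activity.

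The NF-kB and TNF response list had a median log2 ratio of 0.14, with 4 of 28 genes at least 1.5-fold higher and none lower. One of the 4 was Il1b, of which 1 member held 93.3% of the UMIs and whose log2 ratio was -0.60 without the cell with the most UMIs in each group. The others were Cebpb, a factor of inflammatory transcription, with 0.73, Vcam1, an adhesion molecule for lymphocytes, with 0.64, and Tnip1, a brake on NF-kB, with 0.61. Within clusters these were 0.65, 0.53 and 0.38, so that Cebpb alone of the 3 stayed above 1.5-fold. Nfkbia, the inhibitor that NF-kB itself induces, was at 1417 CPM and 1302 CPM, a log2 ratio of 0.12. Tnf was near the limit of detection, at 4.26 CPM (3.18 to 6.08) in members and 1.75 CPM (1.21 to 2.60) in Ccl5-zero cells. Among 16 leucocyte adhesion genes, Vcam1 alone was 1.5-fold higher, and none was within clusters. Icam1 had a log2 ratio of 0.18, and Selp and Sele, selectins of venous ECs, had -0.04 and -0.29.

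Of 31 apoptosis and necroptosis genes, 5 were at least 1.5-fold higher and none was 1.5-fold lower, with a median log2 ratio of 0.20. The pro-death BH3 genes Pmaip1, Bid and Bcl2l11 had log2 ratios of 1.93, 0.71 and 0.66, and the death receptor Fas had 0.95. Within clusters these were 1.12, 0.51, 0.29 and 0.90, so Bid and Bcl2l11 fell short of 1.5-fold, and Pmaip1 and Fas reached 5 CPM only in the members. Their levels in members were low, at 7.48 CPM (5.45 to 10.3) for Pmaip1 and 35.0 CPM (30.9 to 39.8) for Bcl2l11. Gadd45b, a stress-induced gene that restrains JNK signalling, was at 40.2 CPM and 19.3 CPM, a log2 ratio of 1.06. Bax and Ripk3, at log2 ratios of 0.18 and -0.16, were close to even. Il15, which sustains NK and CD8+ T cells, was at 18.3 CPM (15.5 to 21.9) and 9.79 CPM (8.47 to 11.4), a log2 ratio of 0.91.

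**Figure D3:**
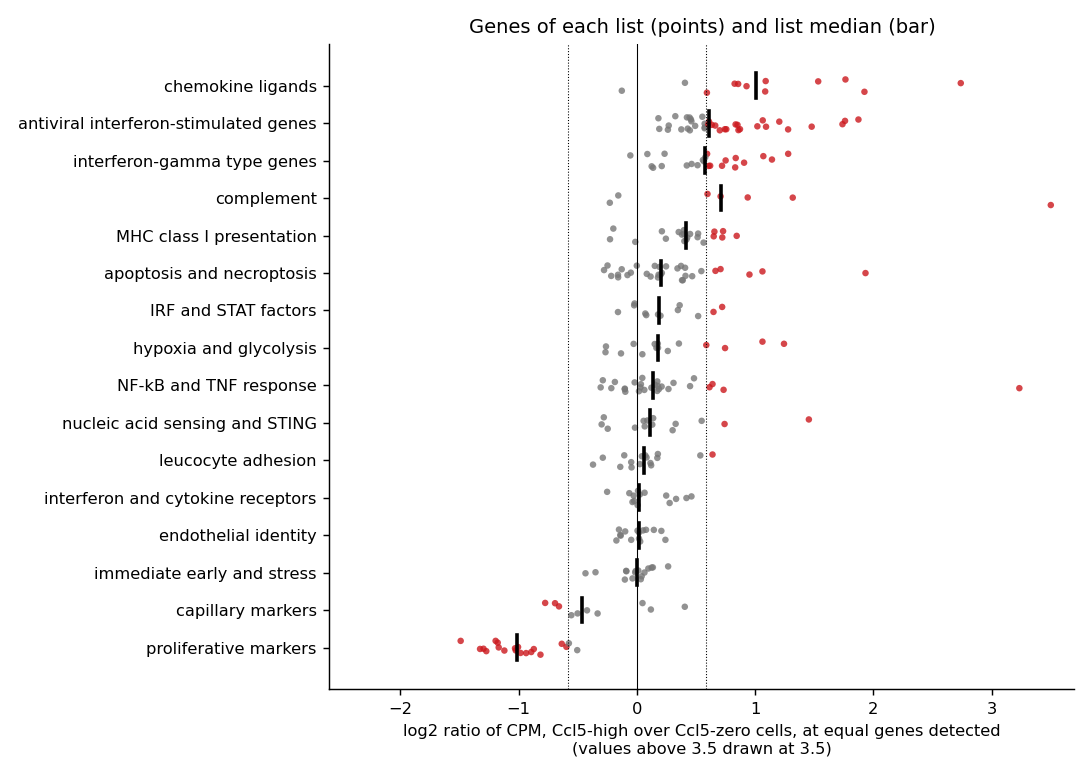
Log2 ratio of CPM in Ccl5-high over Ccl5-zero cells for each gene of 16 lists (points, red at 1.5-fold or more in either direction) with the list median (black bar). Dotted lines mark 1.5-fold. Genes that reached 5 CPM only in the members were 3 chemokine ligands, 2 antiviral genes, 1 interferon-gamma type gene and 1 complement gene. The same holds for 3 apoptosis and necroptosis genes, 2 hypoxia and glycolysis genes, 2 leucocyte adhesion genes and 1 NF-kB and TNF response gene. Chemokine ligands have a median of 1.01 and antiviral genes of 0.61 with all 37 above 0, sensing, receptor and endothelial identity genes centre near 0, and proliferative markers have a median of -1.01.

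Besides these lists, the genes with the largest ratios at 20 CPM or more included several with other roles. Pdgfa, a growth factor that ECs give to mesenchymal cells, was at 98.8 CPM (92.3 to 106) in members and 32.4 CPM (29.9 to 35.2) in Ccl5-zero cells, a log2 ratio of 1.61. Nupr1 was at 159 CPM (151 to 167) and 45.2 CPM (42 to 48.6), a log2 ratio of 1.81, and was higher in members in all 8 clusters. Ifi209, an interferon-induced gene of the p200 family, and Sp140, an interferon-induced chromatin reader, had log2 ratios of 1.73 and 1.5. Ctsh, a lysosomal protease, and Cpe, a carboxypeptidase that processes prohormones, had 1.53 and 1.71. Gm5483 had 1.69, and since it belongs to a family of similar stefin genes its reads may have been divided. Mgp, a matrix protein, had 3.25 with 24.2% of its member UMIs in 1 cell, and was 1.71 to 3.61 over the alternatives tried. Lyve1, a hyaluronan receptor of lymphatic and some other ECs, was at 63.6 CPM and 28.9 CPM, a log2 ratio of 1.14, whereas the lymphatic receptor Flt4 had -0.15.

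The lowest ratio among these genes was that of Rbp7, a retinol-binding protein of capillary and arterial ECs, at 14.4 CPM (12 to 17.6) in members and 76.7 CPM (72.5 to 81.2) in Ccl5-zero cells, a log2 ratio of -2.41. Pooled over clusters, its level was lower in each higher range of Ccl5 values. It was 68.3 CPM at 0, 39 CPM in Ccl5-low cells and 18.4, 13.5 and 11.4 CPM in the 3 ranges of members. In the arterial cluster it was at 48.4 CPM in members and 314 CPM in Ccl5-zero cells. Of 10 capillary markers, 3 were at least 1.5-fold lower and the median log2 ratio was -0.46. These were the water channel Aqp1, at 552 CPM (536 to 568) and 945 CPM (931 to 959), the carbonic anhydrase Car4 with -0.69 and the fatty acid transporter Cd36 with -0.66. Within clusters the log2 ratios were -0.70 for Aqp1, -0.45 for Car4 and -0.53 for Cd36, so that of these 3 only Aqp1 stayed past 1.5-fold.

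The other 9 genes with the lowest ratios, Spc24, Cenpf, Knstrn, Ccna2, Cdc20, Prc1, Aurkb, Cenpa and Top2a, all act in the cell cycle. Of 20 proliferative markers, 18 were at least 1.5-fold lower in members, with a median log2 ratio of -1.01. Mki67 was at 22.8 CPM (20.5 to 25.8) in members and 51.3 CPM (48.3 to 54.6) in Ccl5-zero cells. The median was -0.13 when the groups were compared within clusters and -0.24 without the proliferative clusters. The proliferative clusters were named from these same markers, and 18 of the 20 were raised in that led by Ube2c. A smaller difference in both comparisons was therefore largely fixed in advance. Without these clusters Cenpf, Ube2c and Prc1 were higher in members, with log2 ratios of 0.99, 1.13 and 0.43.

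Members were found in every cluster of ECs, in unequal shares. The ECs of both libraries had been clustered without Ccl5 and without genes that differed 2-fold between the libraries, and named from markers where at least 3 were raised. Of the tip-like ECs, which lead vessel sprouts, 66 of 195 were members, or 33.8% (27.2 to 41.0). Of the proliferative ECs, 37 of 327 were members, or 11.3% (8.09 to 15.3), so these intervals did not overlap. Stalk-like ECs had 70 of 327, or 21.4% (17.1 to 26.3), and arterial ECs 42 of 194, or 21.6% (16.1 to 28.1), between them and close to the 20.6% (18.5 to 22.9) of the whole library. A cluster led by Ramp3 and Igfbp3 that had too few markers for a name had 19.1% (14.4 to 24.6), and one led by Igfbp5 and Ctsh had 27.5% (15.9 to 41.7).

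The order of tip-like above proliferative ECs held on both sides of the median of 5945 genes. Above it the shares were 38.7% and 14%, and below it 29.4% and 2.60%. Tip-like ECs made up 23.9% of the members and held 35.7% of the Ccl5 UMIs, and proliferative ECs 13.4% and 10.3%. By cluster, the summed Ccl5 level ran from 142 CPM in the mitotic cluster led by Ube2c to 1556 CPM in the tip-like cluster led by Pgf and Ankrd1. At 5000 UMIs per cell, any Ccl5 UMI was found in 36.6% of tip-like ECs (29.8 to 43.8), 30.5% of stalk-like ECs (25.5 to 35.8), 28.3% of arterial ECs (22 to 35.2) and 14.5% of proliferative ECs (10.9 to 18.8). On that measure tip-like, stalk-like and arterial ECs overlapped, and proliferative ECs stayed apart from all 3.

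**Figure D4:**
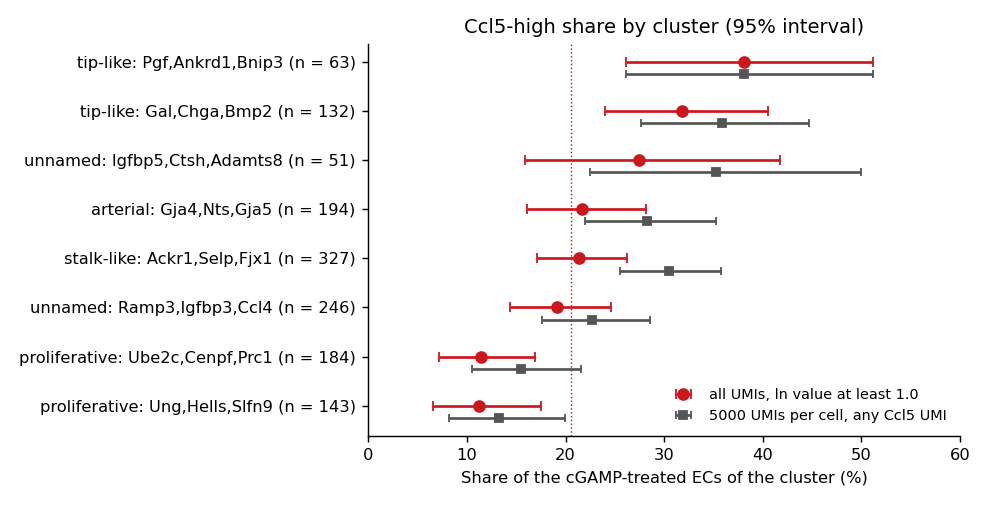
Share of cGAMP-treated ECs of each of 8 clusters, named with their leading genes, that were Ccl5-high (red) or held any Ccl5 UMI at 5000 UMIs per cell (grey), with exact 95% intervals. The dotted line is the 20.6% of the whole library. Both tip-like clusters lie above it and both proliferative clusters below it.

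The difference between members and Ccl5-zero cells was unlike from cluster to cluster. In the tip-like cluster led by Gal and Chga, with 42 members and 54 Ccl5-zero cells, all 37 antiviral genes were higher and 36 by at least 1.5-fold, with a median log2 ratio of 1.34, and the median of the interferon-gamma type genes was 1.58. In the stalk-like cluster, with 70 members and 129 Ccl5-zero cells, 26 of 37 antiviral genes were higher and 5 by at least 1.5-fold, with a median of 0.08. The arterial cluster had a median of 0.13, the proliferative cluster led by Ung and Hells 0.76 and the cluster led by Ramp3 0.58. Rsad2 is itself a leading gene of the Gal and Chga cluster, and Ccl4 of the cluster led by Ramp3. Whether the clusters differ beyond the spread between mice could not be tested with 1 mouse.

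The difference in Cxcl9 also varied between clusters. In the Gal and Chga cluster it was at 2757 CPM in members and 721 CPM in Ccl5-zero cells, in the Pgf and Ankrd1 cluster at 2241 and 546 CPM and in the arterial cluster at 1455 and 516 CPM. In the stalk-like cluster it was at 1508 and 1324 CPM, so that the stalk-like Ccl5-zero cells held more Cxcl9 than the Ccl5-zero cells of the other 7 clusters. In the proliferative clusters the log2 ratios were -0.16 and 0.00. In the cluster led by Igfbp5 and Ctsh Cxcl9 was lower in members, at 263 and 397 CPM, a log2 ratio of -0.60, and in that led by Ramp3 it was higher, with 1.62.

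**Figure D5:**
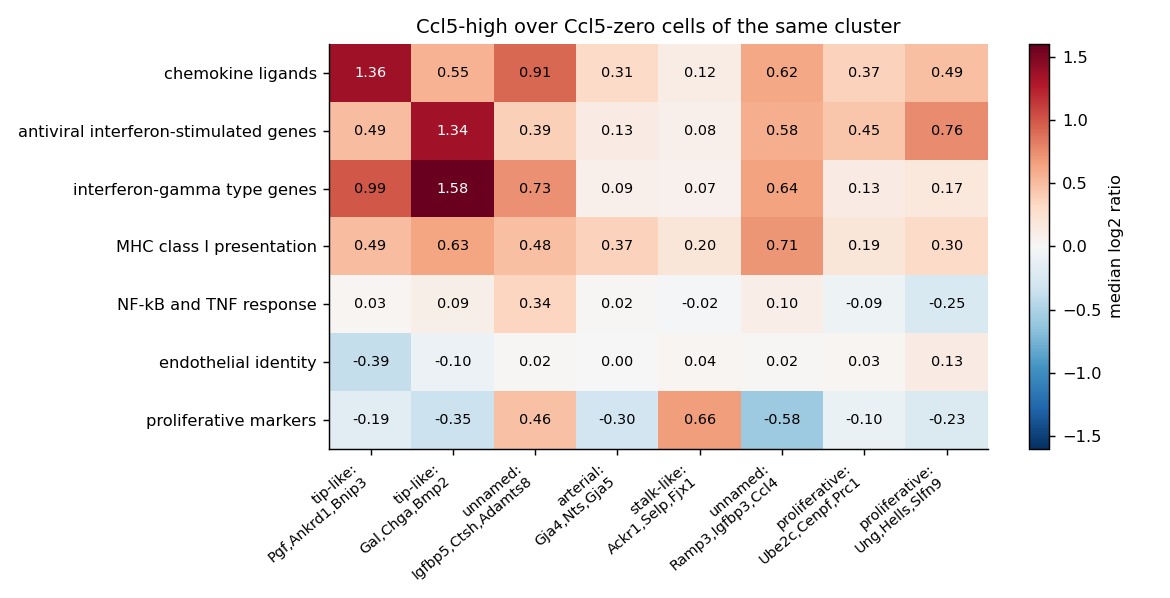
Median log2 ratio of Ccl5-high over Ccl5-zero cells of the same cluster for 7 lists (rows) in 8 clusters (columns), compared over 3 ranges of genes detected. The proliferative median of 0.46 in the cluster led by Igfbp5 and Ctsh comes from genes with fewer than 3 UMIs in both groups. It is set by the UMI totals of the groups and is no difference in these genes. Chemokine, antiviral, interferon-gamma type and MHC class I medians are above 0 in every cluster, and the antiviral median runs from 0.08 in the stalk-like to 1.34 in the Gal and Chga tip-like cluster.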

How the data were processed

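The authors sorted live CD45- CD31+ ECs, aligned reads to mm10, removed cells with few genes or many mitochondrial UMIs and clusters without Pecam1, and deposited natural log values of 1 plus UMIs per 10000 for each kept cell. The submitters' processing notes name Cell Ranger 3.0.0 and Seurat 3.1.1. The labels and the methods name different versions of the droplet kit. To recover UMIs, values were returned to the linear scale and expressed in units of the lowest nonzero value of the cell; all of them (100%) lay no more than 0.01 from an integer. The cGAMP library held 63366746 UMIs in 1340 ECs and the PBS library 92081146 in 2517, both with 17139 genes listed. No doublets were removed.

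Levels are summed UMIs in CPM, weighted over 10 bins of genes detected (Ccl5 not counted) to the Ccl5-high cells, with gamma (Fay-Feuer) 95% intervals. Pooled sums have exact Poisson and shares exact Clopper-Pearson intervals. Genes with at least 5 CPM in either group entered. With 1 library per condition there is no test and no p-value. Within clusters, 3 ranges of genes detected were used. A group with fewer than 3 UMIs of a gene entered ratios at no less than 3 UMIs. Clusters were made with Seurat 5.3.0 in R 4.3.3 (2500 variable genes, of which 1794 were kept, integration anchors, 30 principal components, resolution 0.5). A marker was raised at 2-fold with 5 CPM added. A name needed at least 3 raised markers, a marker of the class among the 10 leading genes, and no more markers of another class there. Calculations used Python 3.11.15 and scipy 1.17.1, and the procedure was tested on simulated data.

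Genes are named by a rule: the 10 with the largest ratio in each direction at 20 CPM or more with the same sign in 3 ranges of genes detected, up to 4 by ratio and 2 by level in each list at 20 CPM or more, all chemokine ligands and Ccl5 receptors with 5 CPM, and defining or signalling genes. List genes given beyond it were named after their values were seen. The members and the lists were chosen with earlier results of these data known. Alternatives were other limits, bins, scalings, matching, thinning, clusters and left-out cells. Some genes are not reported here.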

Additional observations from a re-analysis of the deposited data

How the results depend on the processing

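With 1 mouse per library, no setting replaces replication. No paired analysis was possible because each condition has 1 library. The number of members was 168 at a limit of 2.0 on the natural log scale, and 211 to 392 at limits of 0.5 and 1.5, at 3 Ccl5 UMIs or after thinning. The counts of genes at least 1.5-fold higher and lower were 807 and 808 after thinning to 5000 UMIs, where counting error is larger, 124 and 91 at a minimum of 20 CPM, 756 and 625 at a minimum of 1 CPM, 840 and 910 at a limit of 25% above the other group, and 116 and 98 at a fold of 2. Within clusters the lower count was 103, and without the proliferative clusters, an alternative chosen after seeing the data, it was 167, so that genes higher in members were 66.9% and 65.0% of the calls against 48.2% in the comparison reported and 43.1% to 51.4% under the other alternatives that change the cells, bins or scaling. The share of members was 15.2% of arterial ECs without integration, and 15.5% of arterial and 7.03% of proliferative ECs at a limit of 1.5. After thinning to 5000 UMIs, 1 Ccl5 UMI was enough to pass the limit of 1.0. The class was then every cell with a Ccl5 UMI, at 30.5% of stalk-like ECs and 28.3% of arterial ECs. Some log2 ratios of single genes changed sign. Without the proliferative clusters those of Cenpf, Ube2c and Prc1 were 0.99, 1.13 and 0.43. Without cells with a Ptprc UMI, S100a8 was at -0.19 and Ccl3 at -0.61. Ccl3 was at -0.19 without the 5% of cells with the most UMIs. Without the cell with the most UMIs of the gene in each group, also chosen after seeing the data, S100a8 was at -0.049 and Ccl3 at -0.11, and S100a8 was at -0.26 without the 5 cells with the most S100a8 and S100a9. Over these alternatives the log2 ratio ranged from 0.93 to 1.22 for Cxcl9, from 1.53 to 2.01 for Rsad2, from 1.74 to 2.16 for Cxcl16, from 0.55 to 0.71 for Irf7 and from 0.57 to 1.63 for Ccl2. Of the list medians under the alternatives, 379 stayed within the 95% order-statistic interval of the median over the genes of the list and 15 lay outside it. For the smallest lists, such as the 3 erythroid markers measured, that interval runs from the lowest to the highest gene and covers less than 95%. It measures the spread between genes of a list, so this count says little about stability.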

Other observations

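The 9 PBS-treated ECs that reached the same Ccl5 limit held 536 of the 596 Ccl5 UMIs of that library, at 408755 UMIs in all. Cxcl9 was at 1270 CPM (1163 to 1384) in them, with a UMI in 8 of the 9 cells, and at 108 CPM (106 to 110) in the 2482 PBS-treated ECs without Ccl5. Rsad2 was at 822 CPM (736 to 915) and 97.3 CPM, and Irf7 at 433 CPM (372 to 502) and 78.4 CPM. In 8 of the 9 cells the summed level of the 37 antiviral genes was above the median of 3936 CPM of the cells without Ccl5, with a lowest of 3450, a median of 11664 and a highest of 42446 CPM. Pecam1 was at 930 CPM (839 to 1028) and had a UMI in all 9. Ptprc had 2 UMIs in 1 of these cells, Ccl2 had 416 of its 427 UMIs in 1 cell and Cd74 had its 38 UMIs in 1 cell. Serping1, which was at 306 CPM in cGAMP-treated members, was at 9.79 CPM (2.67 to 25.1) in these PBS-treated cells. These 9 cells came from 1 mouse and were not compared by a test.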
